A study of Mus musculus with 3 samples.

Results

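The neuroendocrine splicing regulators described here are 10 RNA-binding protein genes, Rbfox2, Nova1, Nova2, Elavl4, Ptbp1, Ptbp2, Mbnl1, Celf4, Srrm3 and Srrm4. They were found by their symbols among the 32285 genes of the files, and each symbol matched 1 gene. The data are single-cell RNA-sequencing libraries of pancreatic islet cells of mice 9 months old, 1 library labelled ASF-KO, 1 labelled SC35-KO and 1 from wild type (WT). The names stand for the SR proteins SRSF1 (ASF) and SRSF2 (SC35), which help to choose splice sites, and the series asks about both in diabetes. The labels give no Cre line, promoter, deleted exon, sex or number of mice. With 1 library for each genotype, differences between genotypes could not be tested, and their intervals cover counting error only.

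Alternative splicing in neurons is set by a small group of RNA-binding proteins, and endocrine cells of the islet are known to share part of that group. SRRM3 and SRRM4 promote the inclusion of microexons, very short exons of neuronal transcripts. NOVA, RBFOX, MBNL and CELF proteins raise or lower the use of an exon depending on where they bind, while PTBP1 represses many neuronal exons and is replaced by PTBP2 as neurons form. REST is a transcriptional repressor of neuronal genes, Srrm4 among them, in other tissues.

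Cells were classed one by one from the share of their unique molecular identifiers (UMIs, counted molecules) that fell on hormone or lineage marker genes, none of which is 1 of the 10 genes. This gave 6163 endocrine-like cells in the library labelled ASF-KO, 9542 in that labelled SC35-KO and 7160 in WT. Non-endocrine-like cells (endothelial, myeloid, lymphocyte, stromal, ductal and Schwann) numbered 522, 589 and 1264 in the same order. Median UMIs per kept cell were 16965, 9871 and 14300, and 40.8%, 16.1% and 9.53% of barcodes failed the cell filter. Between 32 and 45 cell barcodes were shared by any 2 libraries, where the library with the fewest, WT, held 10266. Levels below are counts per 1000000 UMIs (CPM) of genes other than 8 hormone genes and mitochondrially encoded genes. They were counted at transcript 3′ ends and are compared between cells and libraries, not between genes. The targeted genes were not lower in the libraries that carry their names. Srsf1 stood at 133 CPM in endocrine-like cells labelled ASF-KO, 139 in those labelled SC35-KO and 96.9 in WT. Srsf2 stood at 174 in those labelled ASF-KO, 89.3 in those labelled SC35-KO and 71.2 in WT. As the deleted parts are not given, a 3′ count may lie outside them, and the knockouts are called by their labels throughout.

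Of the 10 genes, 6 were higher and 2 lower in endocrine-like than in non-endocrine-like cells, and 2 did not pass the test. The test was edgeR's quasi-likelihood test on sums of UMIs, with library as a block and Benjamini-Hochberg adjustment over 16750 genes. At an adjusted p under 0.05 it called 31.2% of all genes higher and 26.8% lower, so calls were common. The 10 genes had a median log2 fold change of 1.81, against 0.18 over all genes tested. Since the genes were chosen with earlier results of these data known, this contrast only describes them. The 6 higher genes, from the largest fold down, were Srrm3, Elavl4, Srrm4, Celf4, Nova1 and Ptbp2. Nova2 and Mbnl1 were lower, and Rbfox2 and Ptbp1 were not called. All 6 higher calls held in all 16 alternatives tried.

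**Figure D1:**
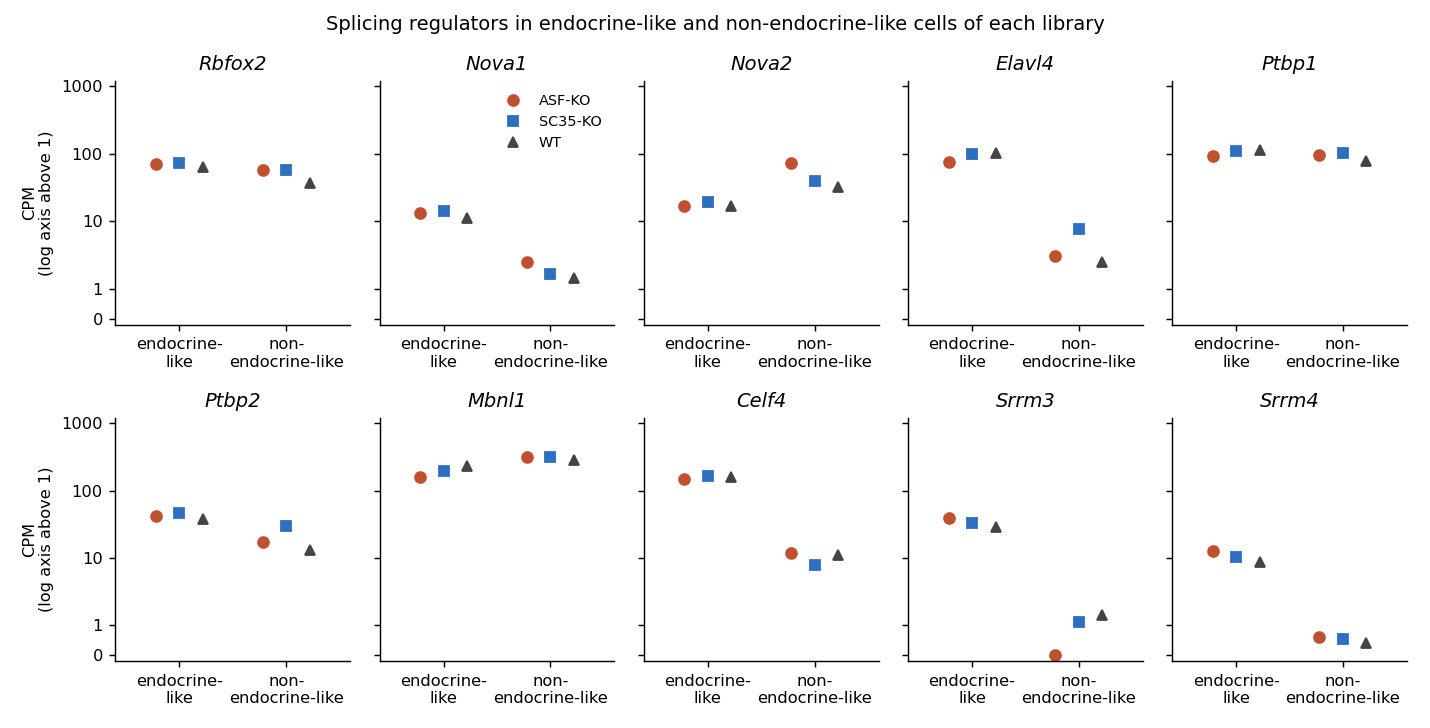
Level of each gene in CPM (vertical axis, logarithmic above 1) in endocrine-like and non-endocrine-like cells, with 1 point for each library and no error bars. Srrm3, Srrm4, Elavl4 and Celf4 separate by more than 10-fold in every library, and Nova2 lies higher in the non-endocrine-like cells. Ptbp1 and Rbfox2 separate far less, and most in WT, at 115 against 77.6 and 64.0 against 37.1 CPM.

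The microexon regulators were close to 0 outside endocrine-like cells. Srrm3 (ENSMUSG00000039860, GRCm38 chromosome 5, 135806890 to 135874772, plus strand) encodes a protein related to SRRM4 that is known to drive microexons in islets. It stood at 38.6 (ASF-KO), 33.4 (SC35-KO) and 29.2 (WT) CPM in endocrine-like cells, from 1558 to 1731 UMIs. Non-endocrine-like cells gave 0, 2 and 7 UMIs, or levels of 0, 1.12 and 1.45, and the 0 allows a level of up to 1.85 (3 UMIs). The groups were far apart in every library, with a log2 fold change of 4.73 (SE 0.42, edgeR adjusted p 1.47e-05). Srrm4 (ENSMUSG00000063919, chromosome 5, 116439275 to 116591817, minus strand), the neuronal microexon activator, stood at 12.9, 10.4 and 8.75 CPM in endocrine-like cells of the same libraries. Only 1, 1 and 2 UMIs of it were counted in non-endocrine-like cells, and the log2 fold change was 4.15 (SE 0.46, edgeR adjusted p 5.89e-05). A sense-intronic gene annotated inside Srrm4 on the same strand, Gm42854, is also among the files' genes, so reads there could be split.

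Rest, from a list of other tissue-biased regulators, went the other way from Srrm3 and Srrm4. Its level was 1.67, 2.15 and 1.57 CPM in endocrine-like cells labelled ASF-KO, SC35-KO and WT, against 52.9, 63.0 and 48.1 in non-endocrine-like cells. The log2 fold change was -5.09 (SE 0.20, edgeR adjusted p 3.02e-07). Among the endocrine classes Rest was lowest in beta-like cells, at 0.720, 0.870 and 1.11 CPM. It stood at 39.3 to 80.2 CPM in endothelial-like and 54.1 to 62.2 in ductal-like cells. The ductal-like class held only 8 (ASF-KO), 28 (SC35-KO) and 70 (WT) cells, so its range is loose.

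The promoters of 4 genes are shown because their levels stand for the patterns found: Srrm4 and Elavl4 for genes near background outside endocrine cells, Nova2 for a gene shared with endothelial-like cells, and Ptbp1 for a gene read in all of them. Each runs from 250 bases before to 50 bases after an annotated start in RefSeq (GRCm38.p6), 5′ to 3′ on the gene's strand. Capitals mark matches on either strand to 6 letter strings, namely GGGCGG of the GC box, CCAAT of the CCAAT box, TATAAA of the TATA box, CAGCTG and CAGATG as E-boxes, and TGACG of cyclic AMP response elements. Matches of different strings do not overlap in the windows shown.
Srrm4 (chr5:116591768-116592067, minus strand): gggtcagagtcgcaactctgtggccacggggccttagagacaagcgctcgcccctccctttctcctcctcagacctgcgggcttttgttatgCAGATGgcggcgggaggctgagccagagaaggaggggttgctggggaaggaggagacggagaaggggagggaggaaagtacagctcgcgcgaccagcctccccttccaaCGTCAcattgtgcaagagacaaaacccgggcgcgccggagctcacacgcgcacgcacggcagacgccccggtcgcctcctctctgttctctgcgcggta
Elavl4 (chr4:110351862-110352161, minus strand, the first of 4 starts): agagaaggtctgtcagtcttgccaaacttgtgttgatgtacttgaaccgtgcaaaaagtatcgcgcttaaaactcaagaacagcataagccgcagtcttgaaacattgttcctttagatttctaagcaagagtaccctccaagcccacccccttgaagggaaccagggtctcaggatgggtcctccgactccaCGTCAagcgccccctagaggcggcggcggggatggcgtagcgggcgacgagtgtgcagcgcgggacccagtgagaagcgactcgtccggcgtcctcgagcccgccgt
Nova2 (chr7:18925638-18925937, plus strand): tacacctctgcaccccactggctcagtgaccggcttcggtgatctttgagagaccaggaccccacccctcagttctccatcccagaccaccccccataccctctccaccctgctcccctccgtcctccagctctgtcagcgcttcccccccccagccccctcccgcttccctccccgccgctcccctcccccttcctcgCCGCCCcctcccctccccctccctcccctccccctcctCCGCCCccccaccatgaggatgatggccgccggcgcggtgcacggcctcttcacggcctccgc
Ptbp1 (chr10:79854182-79854481, plus strand): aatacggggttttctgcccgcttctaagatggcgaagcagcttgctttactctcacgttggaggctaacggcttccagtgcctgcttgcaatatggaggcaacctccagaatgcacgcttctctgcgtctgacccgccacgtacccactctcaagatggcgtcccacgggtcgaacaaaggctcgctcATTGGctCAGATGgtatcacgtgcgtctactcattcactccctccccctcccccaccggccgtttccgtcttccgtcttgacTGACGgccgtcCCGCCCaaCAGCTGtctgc
TGACG is in all but the Nova2 window, GC boxes are in the Nova2 and Ptbp1 windows, and none of the 4 holds TATAAA. Of 32851 promoters of this length, 20.8% hold TGACG, 35.7% a GC box, 37.4% CCAAT, 17.2% CAGATG, 16.3% CAGCTG and 13.6% TATAAA, so each match is common. The Srrm4 window holds 25 CpG and 64.3% G and C, the Elavl4 window 23 and 57.0%, the Nova2 window 17 and 71.3%, and the Ptbp1 window 22 and 58.3%. The median promoter has 7 CpG and 52.7% G and C. No window of Rbfox2 or Celf4 was matched.

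Elavl4 (ENSMUSG00000028546, chromosome 4, 110203722 to 110351909, minus strand) encodes HuD, a neuronal protein that binds AU-rich RNA and is known to control insulin translation in beta cells. Its level was 75.6 (ASF-KO), 101 (SC35-KO) and 104 (WT) CPM in endocrine-like cells and 3.08, 7.81 and 2.49 in non-endocrine-like cells. The log2 fold change was 4.40 (SE 0.30, edgeR adjusted p 2.65e-06), and no library overlapped. Celf4 (ENSMUSG00000024268, chromosome 18, 25477632 to 25754157, minus strand), a CELF family member of excitatory neurons, stood at 147, 163 and 161 CPM in endocrine-like cells. In non-endocrine-like cells it stood at 11.7, 7.81 and 11.2, which gave a log2 fold change of 3.75 (SE 0.22, edgeR adjusted p 1.14e-06).

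Nova1 (ENSMUSG00000021047, chromosome 12, 46694517 to 46818929, minus strand) encodes a KH-domain protein that binds YCAY clusters and is known to act in beta cells. It stood at 13.4, 14.3 and 11.4 CPM in endocrine-like cells labelled ASF-KO, SC35-KO and WT, against 2.46, 1.67 and 1.45 in non-endocrine-like cells. The log2 fold change was 2.67 (SE 0.34, edgeR adjusted p 0.00016), resting on 3 to 7 UMIs in the non-endocrine-like cells of a library. Ptbp2 (ENSMUSG00000028134, chromosome 3, 119718742 to 119784466, minus strand), the neuronal PTB protein, had the smallest called rise. It stood at 41.4, 47.1 and 37.5 CPM in endocrine-like and at 17.2, 30.1 and 13.3 in non-endocrine-like cells, a log2 fold change of 0.96 (SE 0.20, edgeR adjusted p 0.00318). Every library was higher in endocrine-like cells, with Ptbp2 also read in all 6 non-endocrine classes. A sense-intronic gene, Gm42664, lies inside Ptbp2 on the same strand and is counted in the files as well.

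Droplet libraries carry free RNA, and the 11 pan-endocrine markers give its scale. In endothelial-like cells they stood at a median of 3.70% (ASF-KO), 5.52% (SC35-KO) and 3.93% (WT) of their endocrine level, over a range of 2.69% to 7.43%. Low levels of the same markers were part of the gate, so these shares may understate it. Celf4 in endothelial-like cells was at 7.30%, 3.12% and 5.79% of its endocrine level, and Elavl4 at 2.03%, 11.1% and 2.99%. Srrm3 was at 0%, 6.07% and 3.54% and Srrm4 at 5.96%, 9.73% and 0%, on 0 to 2 UMIs. Nova1 was at 22.8%, 7.10% and 18.2%, on 1 to 4 UMIs. Taken library by library, the intervals of these 5 genes all overlap the markers' range. By that full range, a loose measure at this depth, their UMIs in endothelial-like cells of a single library could not be told from background. The Nova1 values labelled ASF-KO and WT lay furthest above the range, with intervals that start at 6.20% and 4.93%, above the marker medians of those libraries. Intervals of Celf4 labelled ASF-KO (from 3.99%) and Elavl4 labelled SC35-KO (from 5.53%) also start above their library's median. UMIs pooled over libraries were not compared with the markers. Ptbp2, at 39.0%, 47.4% and 35.8%, lay above that range in every library.

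Nova2 (ENSMUSG00000030411, chromosome 7, 18925888 to 18965319, plus strand), the neuronal paralog of Nova1 that is also known from vascular endothelium, was lower in endocrine-like cells, with nearly all of its other UMIs in 1 class. Endocrine-like cells stood at 16.7 (ASF-KO), 19.5 (SC35-KO) and 17.0 (WT) CPM and non-endocrine-like cells at 73.2, 39.0 and 32.8, a log2 fold change of -1.53 (SE 0.24, edgeR adjusted p 0.000545). Of the non-endocrine UMIs, 119 of 119, 68 of 70 and 155 of 158 were in endothelial-like cells, where the level was 91.3, 69.0 and 80.1 CPM. Stromal, myeloid and Schwann-like cells gave 0 UMIs in every library. The Schwann-like class held only 5 to 14 cells in a library, so its 0 limits the level loosely. With the endothelial-like cells left out of the sum, an alternative added after the data had been seen, the sign turned and Nova2 was higher in endocrine-like cells by 3.55 (log2, SE 0.54, edgeR adjusted p 1.2e-05). Few non-endocrine UMIs of Nova2 were then left, so the size of that fold is limited by depth. Against endothelial-like cells alone Nova2 was lower by more, at -2.49 (SE 0.16). Nova2 was thus read in endocrine-like and endothelial-like cells and nearly nowhere else, with Schwann-like cells too few to tell.

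Cells thinned to 2000 UMIs gave the same order. Of endothelial-like cells, 15.5% (ASF-KO), 8.73% (SC35-KO) and 13.6% (WT) had a Nova2 UMI, against 4.15%, 3.29% and 4.03% of alpha-like and 0.536%, 0.745% and 0.867% of beta-like cells. Without thinning the shares were 24.4%, 15.5% and 21.1% of endothelial-like, 17.3%, 12.9% and 18.2% of alpha-like and 9.00%, 6.74% and 11.4% of beta-like cells. Thinning left out 42 of 409, 123 of 375 and 107 of 636 endothelial-like cells that were shallower. Insulin transcripts fill much of a beta-like cell's UMIs, so a thinned share there is low for every other gene.

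Mbnl1 (ENSMUSG00000027763, chromosome 3, 60472830 to 60629750, plus strand), the muscleblind protein sequestered in myotonic dystrophy, was lower in endocrine-like cells, and was higher in 4 of the other classes. Its level was 160 (ASF-KO), 197 (SC35-KO) and 227 (WT) CPM in endocrine-like and 313, 313 and 288 in non-endocrine-like cells. The log2 fold change was -0.82 (SE 0.19, edgeR adjusted p 0.00536) and missed the threshold without the library labelled SC35-KO (-0.87, adjusted p 0.0519). Means over libraries were 530 CPM in lymphocyte-like, 388 in stromal-like, 345 in myeloid-like and 311 in endothelial-like cells, against 162 to 202 in the 4 endocrine classes. Ductal-like cells, at 164, lay within the endocrine range. The lymphocyte-like class held 16 (ASF-KO), 9 (SC35-KO) and 252 (WT) cells and the ductal-like 8, 28 and 70, so these 2 means are loose.

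Rbfox2 and Ptbp1 were read on both sides. Rbfox2 (ENSMUSG00000033565, chromosome 15, 77078990 to 77307004, minus strand), which binds GCAUG and is known to regulate exons of secretion genes in beta cells, stood at 69.7, 73.5 and 64.0 CPM in endocrine-like and 58.5, 57.4 and 37.1 in non-endocrine-like cells. The log2 fold change of 0.30 (SE 0.17) was not called (edgeR adjusted p 0.148). It differed sharply inside the non-endocrine group: endothelial-like cells stood at 64.5, 82.2 and 52.7 and stromal-like cells at 87.1, 67.2 and 68.4, while myeloid and lymphocyte-like cells gave 0, 0 and 2 and 0, 0 and 3 UMIs. The last 2 classes held 31, 94 and 158 and 16, 9 and 252 cells, so their 0 counts limit the level loosely. Without endothelial-like cells in the sum the fold change was called, at 1.06 (SE 0.22, edgeR adjusted p 0.00043), and against endothelial-like cells alone it was -0.22 (adjusted p 0.238). Ptbp1 (ENSMUSG00000006498, chromosome 10, 79854427 to 79864771, plus strand), the widely expressed repressor of neuronal exons, stood at 94.4, 110 and 115 CPM in endocrine-like and 97.3, 103 and 77.6 in non-endocrine-like cells. Its log2 fold change of 0.05 (SE 0.17, edgeR adjusted p 0.835) turned sign in 4 alternatives and was called in none. Ptbp1 and Ptbp2 were thus both present in endocrine-like cells. They were counted at gene level, since 3′ counts do not show which exons were used.

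**Figure D2:**
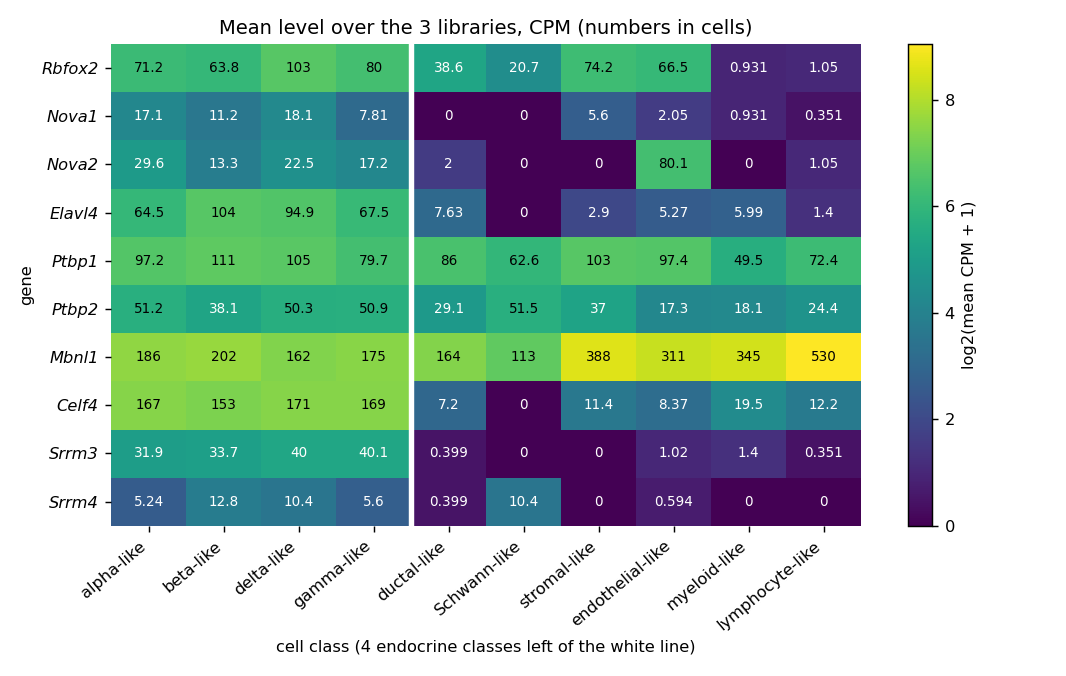
Mean level over the 3 libraries (numbers, in CPM; colour, log2 of the mean plus 1) of the 10 genes in 4 endocrine and 6 non-endocrine classes, to be read along each row. Nova2 has its 1 high non-endocrine value in endothelial-like cells, and Rbfox2 is near 1 in myeloid and lymphocyte-like cells. The Schwann-like column rests on 5 to 14 cells in a library. The lymphocyte-like and ductal-like columns rest on as few as 9 (SC35-KO) and 8 (ASF-KO) cells in a library.

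**Figure D3:**
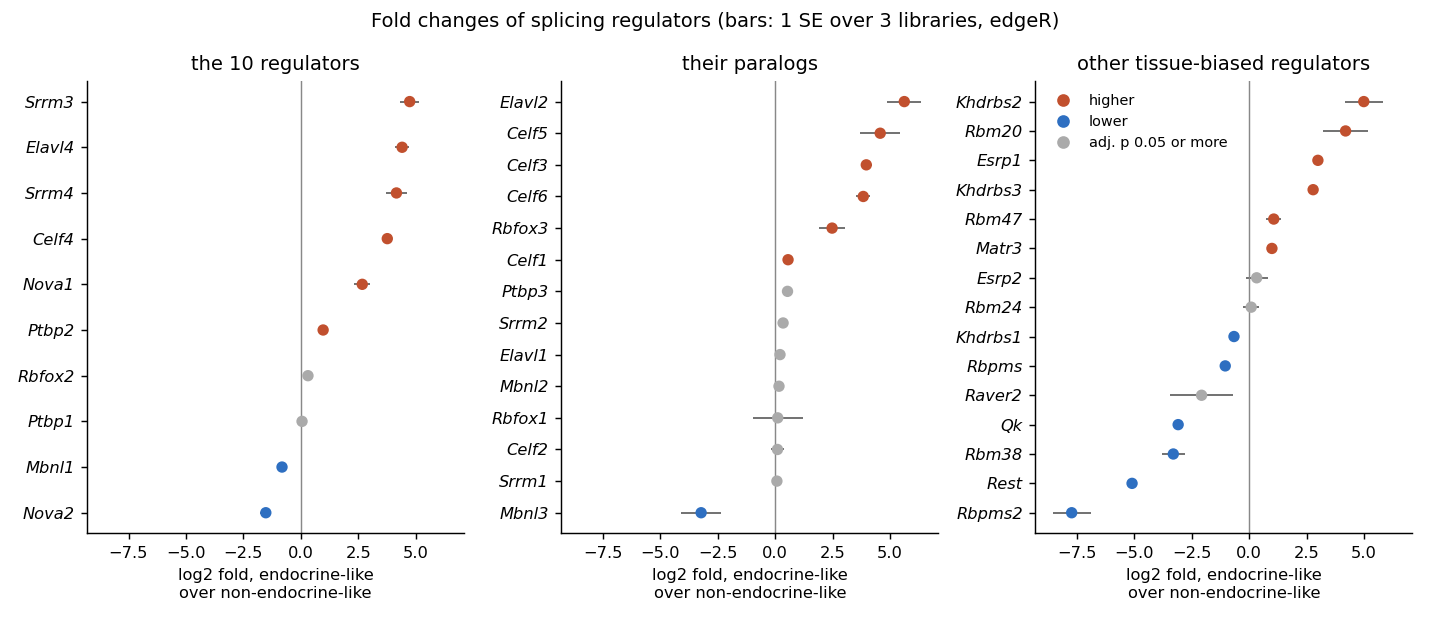
Log2 fold change of endocrine-like over non-endocrine-like cells (horizontal axis) with 1 SE from edgeR, for the 10 genes, their paralogs and other tissue-biased regulators. Elavl2, Celf3, Celf5, Celf6 and Khdrbs2 reach the right side and Rest, Qk, Mbnl3, Rbm38 and Rbpms2 the left, while Celf2 (0.10) and Elavl1 (0.21) lie near 0.

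The family paralogs split by member. Of 15, 14 were tested, with a median log2 fold change of 0.44. Beside 31.2% higher and 26.8% lower among all genes tested, 6 paralogs were higher, 1 was lower and 7 were not called. The higher ones were Elavl2 (5.62, SE 0.73), Celf5 (4.57), Celf3 (3.97), Celf6 (3.83), Rbfox3 (2.48) and Celf1 (0.56, edgeR adjusted p 0.0187). Elavl2 and Celf5 had 1 non-endocrine UMI each over the 3 libraries, so the sizes of their fitted folds are loose. Their ratios of pooled UMIs had counting intervals of 10.3 to 2264 and 4.87 to 1079. Elavl2 is a neuronal Hu protein and Celf3 to Celf6 are the brain-enriched CELF proteins, while Celf1 is widely expressed. Mbnl3, on 1 to 11 non-endocrine UMIs a library, was the lower one at -3.22 (SE 0.86). Elavl1, the ubiquitous Hu protein HuR, had 0.21 (SE 0.16, edgeR adjusted p 0.284), and Ptbp3 0.54 (SE 0.21, edgeR adjusted p 0.051). Srrm1 and Srrm2, general splicing coactivators, had 0.08 and 0.35 and were not called.

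Of 16 other tissue-biased regulators, 15 were tested, with a median of 0.09. Beside 31.2% higher and 26.8% lower among all genes tested, 6 of them were higher, 6 lower and 3 not called. Higher were Khdrbs2 (4.98, SE 0.83), Rbm20 (4.19), Esrp1 (2.99, SE 0.22), Khdrbs3 (2.78, SE 0.20), Rbm47 (1.07) and Matr3 (0.99). KHDRBS2 and KHDRBS3 are the neuronal relatives of SAM68, and ESRP1 is the epithelial splicing regulator. Khdrbs2 and Rbm20 had 1 non-endocrine UMI each, with counting intervals of the pooled ratio of 7.42 to 1641 and 4.18 to 926. Esrp1 was also read in ductal-like cells, at 93.4 (ASF-KO), 51.0 (SC35-KO) and 35.9 (WT) CPM on 5 to 30 UMIs. Lower were Rbpms2 (-7.72, SE 0.83), Rest, Rbm38 (-3.30), Qk (-3.09, SE 0.20), Rbpms (-1.04) and Khdrbs1 (-0.66). Rbpms2 had 7 endocrine UMIs in all, and its pooled ratio of endocrine to non-endocrine had a counting interval of 0.00217 to 0.0122. Qk, the quaking protein of glia and mesenchyme, stood at 40.2, 35.7 and 38.4 CPM in endocrine-like cells labelled ASF-KO, SC35-KO and WT, against 373, 303 and 214 in non-endocrine-like cells.

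The 4 endocrine classes differed from each other as well. In a single edgeR fit, 29 of the 60 gene and pair values were called (48.3%), near the 40.0% of all genes. The count was 16 (26.7%) without the library labelled SC35-KO and also 16 with no replicate block, while the share of all genes was 26.4% and 24.4%. The composition scaling of the fit and the levels printed here differ: alpha-like over beta-like ratios are 0.28 lower in log2 on the printed scale for the median gene, alpha over delta 0.26 and alpha over gamma 0.15. Without that scaling 24 values were called, and 22 were called under both with the same direction. Class differences of the 10 genes named below are among those 22.

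**Figure D4:**
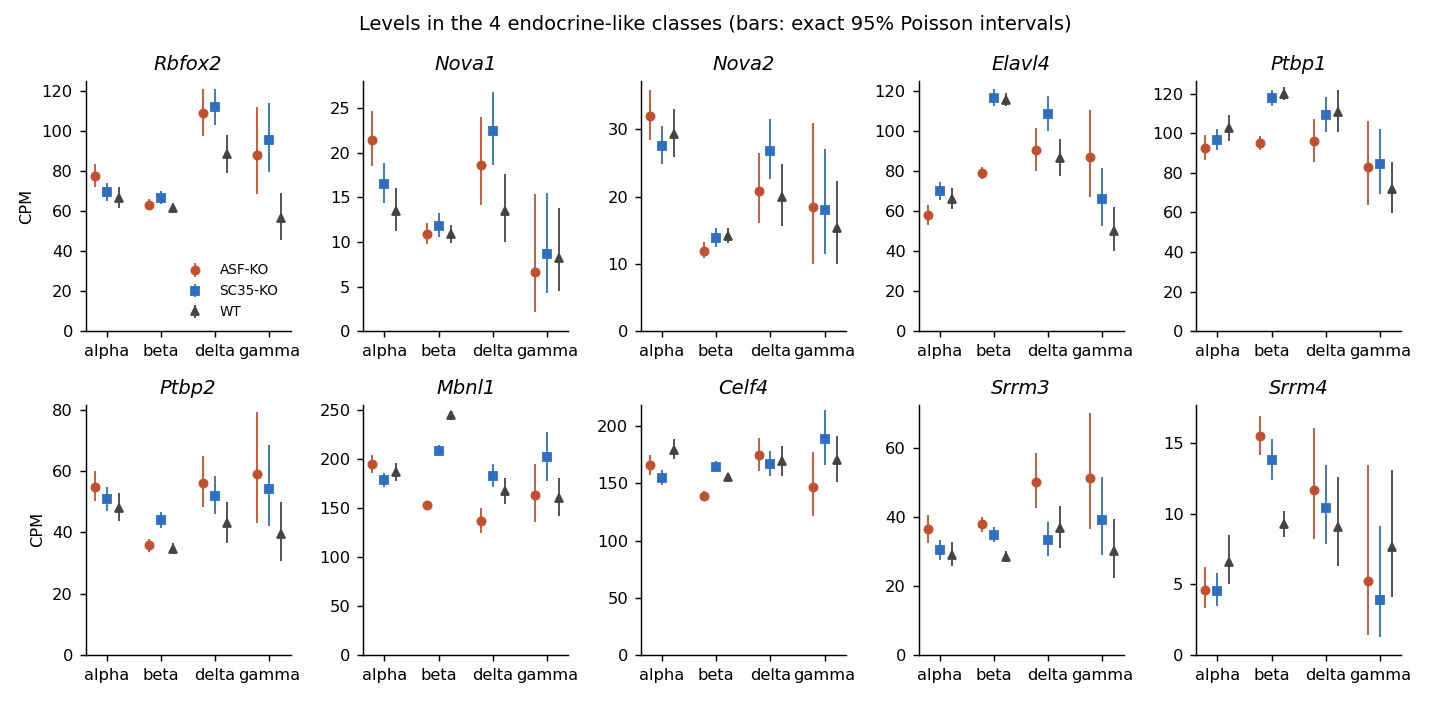
Level of each gene in CPM (vertical axes from 0, a scale for each gene) in alpha, beta, delta and gamma-like cells of each library, with exact 95% Poisson intervals of the counts. Nova2 is highest in alpha-like cells of every library, Rbfox2 in delta-like cells labelled ASF-KO, SC35-KO and WT, and Mbnl1 differs most between libraries in beta-like cells.

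The NOVA genes and Ptbp2 were low in beta-like cells. Nova2 stood at 32.0 (ASF-KO), 27.6 (SC35-KO) and 29.4 (WT) CPM in alpha-like cells and 12.0, 13.9 and 14.2 in beta-like cells, a log2 difference of 1.43 (SE 0.11, edgeR adjusted p 2.37e-09). Its means in descending order were 29.6 in alpha, 22.5 in delta, 17.2 in gamma and 13.3 in beta-like cells, where delta and gamma (edgeR adjusted p 0.217) and gamma and beta (0.0504) were not separated. Nova1 fell into 2 pairs, with means of 18.1 in delta and 17.1 in alpha-like cells and 11.2 in beta and 7.81 in gamma-like cells. Alpha over beta was 0.88 (SE 0.14) and alpha over gamma 1.19 (SE 0.26) in log2, and neither alpha and delta nor beta and gamma were separated (edgeR adjusted p 0.456 and 0.371). Ptbp2 averaged 51.2 in alpha, 38.1 in beta, 50.3 in delta and 50.9 in gamma-like cells. It was higher in alpha than in beta-like cells by 0.71 (SE 0.09, edgeR adjusted p 2.91e-06), and beta-like cells were below delta (-0.42) and gamma (-0.52).

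Srrm4 and Elavl4 were higher in beta-like than in alpha-like cells. Srrm4 stood at 4.60 (ASF-KO), 4.53 (SC35-KO) and 6.58 (WT) CPM in alpha-like cells against 15.5, 13.8 and 9.24 in beta-like cells. The alpha over beta difference was -0.99 (SE 0.21, edgeR adjusted p 0.000768), and delta-like cells, at 10.4 on average, lay near beta-like cells, at 12.8 (adjusted p 0.348). Beta over gamma was 0.94 (SE 0.36, edgeR adjusted p 0.0467), on 4 to 13 gamma UMIs, a call kept in 4 of 9 alternatives. Elavl4 averaged 64.5 in alpha, 104 in beta, 94.9 in delta and 67.5 in gamma-like cells. Its alpha over beta difference was -0.39 (SE 0.12, edgeR adjusted p 0.0132) and beta over gamma 0.55 (SE 0.15), while both calls were lost without WT, without the library labelled SC35-KO or with no block.

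Rbfox2 was highest in delta-like cells, at 109, 112 and 88.3 CPM (ASF-KO, SC35-KO and WT), against 63.2, 66.6 and 61.6 in beta-like cells. Beta over delta was -0.70 (SE 0.10, edgeR adjusted p 6.81e-06). Alpha over delta was -0.27 (SE 0.10, edgeR adjusted p 0.0344), a call kept in 5 of 9 alternatives. Delta-like and gamma-like cells were not separated (edgeR adjusted p 0.0628). Ptbp1 was lower in gamma-like cells, with a mean of 79.7 there and 97.2, 111 and 105 in alpha, beta and delta-like cells. Its alpha over gamma difference was 0.46 (SE 0.10, edgeR adjusted p 0.00154). Srrm3, with means of 31.9, 33.7, 40.0 and 40.1 in alpha, beta, delta and gamma-like cells, had no pair called under either scaling. Mbnl1 and Celf4 had no pair called under both.

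Some related genes stood high in 1 endocrine class of every library. Elavl2 was highest in alpha-like cells, at 19.4, 19.7 and 27.3 CPM against 1.85, 2.87 and 3.02 in beta-like cells (ASF-KO, SC35-KO and WT), a log2 difference of 3.38 (SE 0.17, edgeR adjusted p 6.71e-12) that was 3.10 without the composition scaling. Rbfox3, the neuronal nuclear antigen NeuN, stood at 30.3, 30.7 and 32.5 in delta-like and at 2.03, 5.71 and 5.15 in beta-like cells, with beta over delta at -2.95 (SE 0.21, edgeR adjusted p 8.94e-10), or -2.93 without that scaling. Khdrbs2 stood at 44.5, 45.6 and 34.6 in delta-like cells and under 1.1 in beta-like cells of every library. Of the 4 endocrine classes, delta-like cells held the highest levels of Rbfox2, Rbfox3 and Khdrbs2, though for Rbfox2 they were not separated from gamma-like cells.

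Levels in the knockout libraries were set against WT within the 5 classes that had at least 100 cells in each library. A gene counted as measured with at least 20 UMIs and a level of 5 CPM in 1 of the 2 sums. It counted as higher or lower where its ratio to WT, divided by that of the class's median gene, reached 1.5-fold in that direction. For the library labelled ASF-KO, 2 of 43 measured gene and class values were higher and 2 lower, while 7.99% and 10.5% of all gene and class values were. For that labelled SC35-KO, 3 of 43 were higher and 0 lower, against 5.57% and 6.09% of all. These counts are near the background and are no result about the 10 genes as a group. At 2-fold, no value of the 10 genes was higher or lower in either library.

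**Figure D5:**
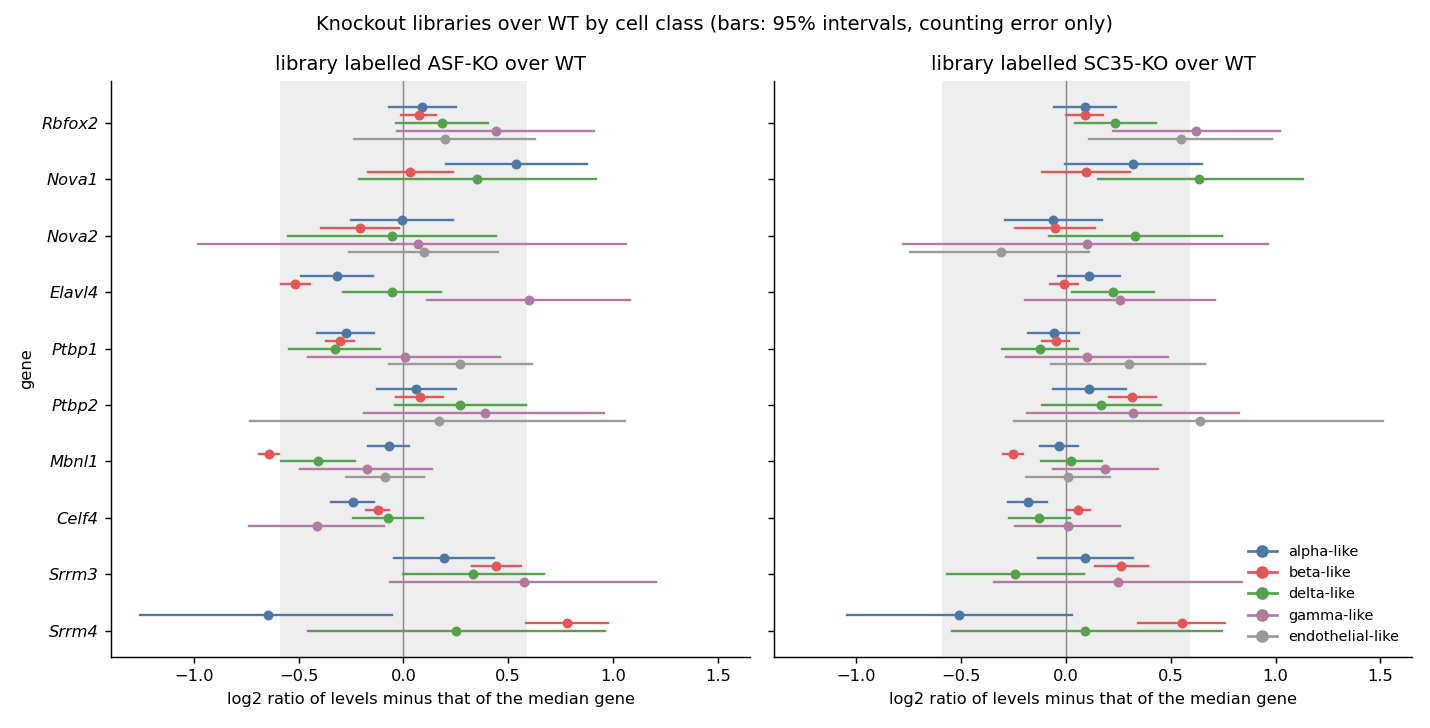
Log2 ratio of levels in the library labelled ASF-KO (left) or SC35-KO (right) over WT, minus that of the median gene of the class (horizontal axis), for each gene and each class measured. Bars are 95% intervals of counting error, and the grey band is 1.5-fold either way. Most points lie inside the band, and for ASF-KO beta-like cells those of Mbnl1 and Srrm4 lie outside it.

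In beta-like cells, the class counted most deeply, 2 genes of the library labelled ASF-KO passed 1.5-fold in opposite directions. Mbnl1 stood at 153 CPM (4883 UMIs) in those cells labelled ASF-KO and at 244 (10517 UMIs) in WT, a ratio of 0.626 (0.605 to 0.648). Srrm4 stood at 15.5 (495 UMIs) in those labelled ASF-KO and at 9.24 (398 UMIs) in WT, a ratio of 1.68 (1.47 to 1.92). The library labelled SC35-KO lay between, with Mbnl1 at 208 and a ratio of 0.853 (0.826 to 0.882) and Srrm4 at 13.8 and a ratio of 1.49 (1.29 to 1.72). Both comparisons share the WT library, so the common direction over the whole class is not independent. For both genes under the label SC35-KO it did not hold in every cluster given below. In these beta-like cells 9.40% of all genes were higher and 10.1% lower in the library labelled ASF-KO.

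The libraries filled different clusters of beta-like cells, clustered on all variable genes. Cluster 6 held 33.6% of the beta-like cells labelled ASF-KO, 7.95% of those labelled SC35-KO and 4.81% of those in WT. Cluster 4 held 32.4%, 4.73% and 18.4%, cluster 0 held 11.8%, 72.6% and 5.50%, and cluster 2 held 8.29%, 7.73% and 50.2%. In the 6 clusters with over 100 beta-like cells in both the library labelled ASF-KO and WT, Mbnl1 was lower in the cells labelled ASF-KO each time, at 129 to 167 CPM, against 178 to 258 in WT. Srrm4 stood at 12.8 to 18.01 CPM (17 to 202 UMIs) in the cells labelled ASF-KO of 5 of these clusters, against 5.86 to 9.48 (8 to 79 UMIs) in WT. In cluster 2 it stood at 9.49 (24 UMIs) in the cells labelled ASF-KO, against 10.1 (231 UMIs) in WT. Mbnl1 in the cells labelled SC35-KO was higher than in WT in cluster 0, at 203 (3839 UMIs) against 178 (243 UMIs). It was also higher in cluster 7, at 195 against 190. In clusters 2, 4 and 6 it was lower, at 240, 231 and 215 against 258, 254 and 246 in WT. These values were added after the data had been seen and were not tested.

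Neither gene moved that way in every class. Mbnl1 ratios of ASF-KO to WT were 1.04 (0.974 to 1.11) in alpha, 0.819 (0.723 to 0.926) in delta, 1.02 (0.815 to 1.26) in gamma and 1.004 (0.881 to 1.14) in endothelial-like cells. Srrm4 in alpha-like cells stood at 4.60 (41 UMIs) in the library labelled ASF-KO, 4.53 (61 UMIs) in that labelled SC35-KO and 6.58 (61 UMIs) in WT. Its ratios to WT there were 0.698 (0.458 to 1.05) and 0.688 (0.475 to 0.998), and the first, counted as lower, has an interval that includes 1. Alpha-like cells also fell into different clusters: cluster 5 held 85.1% of those labelled ASF-KO, 4.96% of those labelled SC35-KO and 63.7% of those in WT, and cluster 1 held 12.2%, 93.3% and 32.7%. Srrm4 stood at 4.66 (36 UMIs) in cluster 5 of the library labelled ASF-KO, against 7.64 (47 UMIs) in WT, and at 4.46 (56 UMIs) in cluster 1 of that labelled SC35-KO, against 4.84 (14 UMIs) in WT. Over whole classes, Srrm4 had ratios above 1 in beta-like and below 1 in alpha-like cells of both knockout libraries, a difference that was not tested.

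Elavl4 was lower in beta-like cells labelled ASF-KO without reaching 1.5-fold relative to the median gene. It stood at 78.8 CPM in beta-like cells labelled ASF-KO, 117 in those labelled SC35-KO and 115 in WT, with ratios to WT of 0.683 (0.651 to 0.717) and 1.01 (0.966 to 1.06). In gamma-like cells it was counted as higher under the label ASF-KO, at 86.8 (66 UMIs), against 49.9 (85 UMIs) in WT, a call lost with doublets kept. Ptbp1 in the library labelled ASF-KO had ratios of 0.903 (0.822 to 0.993) in alpha, 0.792 (0.757 to 0.829) in beta and 0.865 (0.745 to 1.005) in delta-like cells. Its log2 ratios there were 0.28 to 0.33 below the median gene's, while that in endothelial-like cells was 0.27 above. In gamma-like cells its ratio was 1.16 (0.839 to 1.58), near that of the median gene. Srrm3 in the same library had ratios of 1.25 in alpha, 1.33 in beta, 1.37 in delta and 1.71 in gamma-like cells, all above the median gene and none past 1.5-fold relative to it.

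In the library labelled SC35-KO the 3 values counted as higher were in smaller classes. Rbfox2 in gamma-like cells stood at 95.6 (122 UMIs), against 56.4 (96 UMIs) in WT, a ratio of 1.69 (1.29 to 2.24). The gamma-like cells labelled ASF-KO stood at 88.1, so the WT value was the low one of the 3. Nova1 in delta-like cells stood at 22.4 (121 UMIs) in the library labelled SC35-KO and 13.4 (52 UMIs) in WT, a ratio of 1.67 (1.20 to 2.36). Ptbp2 in endothelial-like cells, at 22.3 against 13.4, rested on 22 and 26 UMIs and had an interval of its ratio, 0.898 to 3.05, that includes 1. The Mbnl1, Srrm4 and Rbfox2 calls were kept at 1.5-fold in all settings run, while those of Elavl4, Nova1 and Ptbp2 were not.

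The related lists are given beside the same shares of all values. Of family paralog values, 1 of 46 was higher (2.17%) and 2 were lower (4.35%) under the label ASF-KO, against 7.99% and 10.5% of all. Under SC35-KO, 5 of 47 were higher (10.6%) and 0 lower, against 5.57% and 6.09% of all. Celf3 made up 3 of those 5, at 165, 200 and 223 CPM in alpha, beta and delta-like cells labelled SC35-KO, against 112, 129 and 135 in WT. Rbfox3 in beta-like cells was lower under the label ASF-KO, at 2.03 (65 UMIs), against 5.15 (222 UMIs) in WT, a ratio of 0.395 (0.295 to 0.523). Of the other tissue-biased regulators, 2 of 40 were higher and 2 lower under ASF-KO, and 1 of 38 each way under SC35-KO.

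The genes whose levels followed each regulator most closely over 15 sums (5 classes in 3 libraries) are given as a description, since the sums share libraries and class makeup. Celf4 was most like Sez6l2 (Pearson r 0.99, log2 of the level plus 1), Srrm3 like Ank3 (0.99) and Kcnk12 (0.99), Elavl4 like Sgsm2 and Abcc8 (both 0.99), and Srrm4 like Dagla (0.98). Abcc8 encodes the sulphonylurea receptor of the beta cell, Ank3 the scaffold ankyrin-G and Kcnk12 a potassium channel. Nova2 was most like Ppt2 (0.98) and Cav2 (0.98), Ptbp2 like Scn3a (0.98), a sodium channel gene, and Nova1 like Cep126 (0.96). Mbnl1 (St3gal4, 0.94), Ptbp1 (Ddx3y, 0.92) and Rbfox2 (Scoc, 0.88) had the weaker closest matches.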

How the data were processed

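Libraries were made with a droplet kit that tags 3′ ends, per the labels' protocols. The authors deposited raw UMI counts per gene and barcode for each library, with no normalization; Cell Ranger 5.0.0, STAR, Seurat and mm10 are named in the submitters' processing notes without their roles. The libraries held 148320213 (ASF-KO), 150116204 (SC35-KO) and 154099078 (WT) UMIs. Groups came from the genotype labels and, for WT, from the title. Replicates were absent, so the 3 libraries were the only units.

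Cells kept had at least 500 genes and 1000 UMIs, with mitochondrial genes giving no more than 20%. Scrublet marked 319, 886 and 291 of the cells (ASF-KO, SC35-KO, WT) as doublets, which were removed. Cells were endocrine-like with 1 hormone above its share of UMIs (Ins1 and Ins2 20%, Gcg 5%, Sst 3%, Ppy 10%) and no other lineage's markers. They were non-endocrine-like with 1 lineage's markers and under 0.5% pan-endocrine markers. These shares were set after the distributions had been seen, and cells with several hormones (103, 373 and 226) or no class (294, 295 and 347) were left out. The 10 genes and the lists were chosen with earlier results of these data known.

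UMIs were summed per class and library. Classes were compared with edgeR 4.0.16 (quasi-likelihood, TMM factors, its filter on low counts) or, as an alternative, DESeq2 1.42.0, with library as a block because the sums of a library come from 1 preparation. The test borrows spread across genes, and 3 genotypes stand in for replicates. Ratios to WT carry exact conditional binomial intervals (95%, counting error only). On simulated counts for the endocrine against non-endocrine comparison over 16055 genes, edgeR recovered 71.0% of 2-fold and 94.0% of 4-fold changes. Those counts had the same spread for every gene and no library difference beyond size, so the shares need not hold for these data. All 10 genes were named, and list members by size of fold with at least 20 UMIs in a sum. Other alternatives changed the cell filter, doublets, gate, scaling and makeup of the non-endocrine cells. Python 3.11.15, scanpy 1.11.5 and R 4.3.3 were used.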

Additional observations from a re-analysis of the deposited data

How the results depend on the processing

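The 6 higher calls of endocrine-like over non-endocrine-like cells were the same in all 16 alternatives. Leaving out a library gave 6 to 6 higher and 1 to 2 lower calls. Without endothelial-like cells, an alternative added after the data had been seen, 8 genes were higher and 1 lower, and Nova2 turned to 3.55 (log2). Of all 16417 genes tested there, 4340 were higher and 3989 lower. Rbfox2 turned to -0.22 against endothelial-like cells alone and to -0.0155 without immune classes, and was called in neither. Ptbp1, never called, was -0.0513 with DESeq2, -0.16 against endothelial-like cells alone and -0.0175 without immune classes, and ranged from -0.17 (without WT) to 0.12 (without the library labelled ASF-KO) as each library was left out.

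Between endocrine classes 29 values were called. With no replicate block 16 were called, and leaving out a library gave 16 to 29, with the lowest without the library labelled SC35-KO. These 16 are 26.7% of the values, where 24.4% (no block) and 26.4% (that library left out) of all genes' values were called. Of the 29, 12 were called in each of the 9 alternatives. For the 10 genes, the block changed no call of endocrine-like against non-endocrine-like cells.

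Against WT, the threshold of 2-fold gave 0 higher and 0 lower values under the label ASF-KO and 0 higher under SC35-KO. Classes from clusters, where no gamma-like cluster was found, gave 1 higher and 4 lower under ASF-KO, and 1 lower under SC35-KO. The cause of these differences was not tested. Genes with few UMIs outside endocrine cells (Srrm3, Srrm4, Nova1, Elavl2, Celf5, Khdrbs2 and Rbm20) have folds limited by depth. The same holds for Nova2 with endothelial-like cells left out.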
